A study of Homo sapiens with 6 samples.

Results

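The Src family of tyrosine kinases, its inhibitory kinase CSK and the CSK anchor PAG1 were followed in K562 cells with and without ARID4B. The members were the rows of the deposited count table whose gene symbol was SRC, FYN, YES1, LYN, LCK, FGR, BLK, CSK or PAG1, which are 9 of 34495 rows. All 9 were found, and 5 of them (SRC, FYN, YES1, LYN and CSK) passed the filter on low counts. Sums over the family cover the 7 listed kinases SRC, FYN, YES1, LYN, LCK, FGR and BLK.

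Messenger RNA was sequenced from 3 ARID4B knockout and 3 wild-type (WT) libraries of K562, an established suspension line from a human erythroleukemia. The study's title sets ARID4B, a subunit of the SIN3-HDAC corepressor, beside the KIT-Src pathway in haematopoietic progenitors. Both genotypes grew in the same RPMI medium with serum, penicillin and streptomycin, and no other treatment is named. The sources used here give neither the way the gene was disrupted nor whether replicates are separate cultures or separate clones. The p-values therefore reflect only the spread among 6 libraries, which may be technical.

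Src family kinases sit on the inner face of the membrane, held there by lipid modification, and pass signals from receptors such as KIT, integrins and immune receptors to adaptors and the cytoskeleton. CSK phosphorylates a tyrosine near their C-terminal end, and the folded kinase is then inactive. Phosphatases that remove this phosphate open the kinase again, and PAG1 is a membrane adaptor that brings CSK to its substrates. SRC, FYN and YES1 are made in most tissues, LYN is typical of myeloid and B cells, LCK of T cells, BLK of B cells and FGR of myeloid cells.

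The stretch that CSK acts on is shown first, because it is the feature these kinases share. The last 42 coding bases, stop codon included, are given 5′ to 3′ from GENCODE release 29 transcripts on GRCh38, with the tyrosine codon in capitals. They lie at chr6:111661739-111661780 on the minus strand for FYN, chr18:724424-724465 on the minus strand for YES1, chr1:27612914-27612955 on the minus strand for FGR and chr1:32285675-32285716 on the plus strand for LCK.
FYN: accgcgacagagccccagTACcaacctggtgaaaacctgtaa
YES1: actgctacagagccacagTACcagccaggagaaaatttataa
FGR: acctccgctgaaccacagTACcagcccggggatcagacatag
LCK: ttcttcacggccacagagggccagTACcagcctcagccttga
FYN and YES1 differed at 9 of these 42 bases, YES1 and FGR at 14, and FYN and FGR at 16. In LCK the tyrosine is codon 9 of this stretch and in the others codon 7, so LCK was not compared base by base. None of the 36 pairs of members shared a run of 50 bases in the protein-coding transcripts compared. Runs shared with genes outside the 9 members were not searched.

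FYN was the member that rose, so 2 of its 4 RefSeq start windows are shown, 1 far upstream and 1 internal (GRCh38.p14, minus strand, 300 bases around the annotated start, most of them before it). The upstream window, chr6:111873403-111873702, had 69.0% G and C and 26 CpG dinucleotides. The internal window, chr6:111759868-111760167, had 38.0% G and C and 8 CpG dinucleotides.
FYN upstream start: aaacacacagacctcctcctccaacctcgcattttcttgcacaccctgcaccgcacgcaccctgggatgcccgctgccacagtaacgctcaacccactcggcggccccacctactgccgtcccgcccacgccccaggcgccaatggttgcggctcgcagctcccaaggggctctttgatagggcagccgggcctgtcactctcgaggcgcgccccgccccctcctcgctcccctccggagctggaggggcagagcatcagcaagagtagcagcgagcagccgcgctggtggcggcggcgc
FYN internal start: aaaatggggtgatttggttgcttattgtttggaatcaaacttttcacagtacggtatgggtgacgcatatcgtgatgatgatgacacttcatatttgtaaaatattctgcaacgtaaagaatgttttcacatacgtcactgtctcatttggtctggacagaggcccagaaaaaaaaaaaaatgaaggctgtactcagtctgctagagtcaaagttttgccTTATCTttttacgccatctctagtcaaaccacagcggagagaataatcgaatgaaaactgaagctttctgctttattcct
Both strands were searched for the ETS core CCGGAAG and for the GATA motif AGATAA. Of the 4 FYN windows, 1 held a GATA match, which is the internal one shown, with the match on the opposite strand in capitals, and none held the ETS core. Of 35116 RefSeq windows of this length, 10.3% held each motif, a share per window, whereas 4 windows were searched for FYN. A match is a description of letters only. The gene table does not say which start was used. RefSeq windows were found for 5 of the 9 members, FYN, YES1, CSK, LCK and FGR. The YES1 window held the ETS core and no GATA match, and the windows of CSK, LCK and FGR held neither motif.

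Library totals ran from 21701404 to 24287385 estimated counts in the knockout and from 23959811 to 30346244 in WT. Levels are given as CPM, which divides each count by the TMM-adjusted size of its library. A log2 fold change sets the knockout over WT and comes with its standard error (SE). ARID4B itself, which checks the labels, had 8.52, 7.22 and 7.68 CPM in the knockout, against 38.4, 41.0 and 40.9 CPM in WT, a log2 fold change of -2.36 (SE 0.10, edgeR quasi-likelihood adjusted p = 0.000132). All 13 erythroid precursor markers reached at least 1 CPM in each of the libraries. Of 13696 genes tested, 33.7% passed an adjusted p under 0.05, 18.3% higher and 15.4% lower in the knockout, and the genotypes did not overlap for 52.3%. The median log2 fold change of all tested genes was 0.02. Knockout libraries differed among themselves more than WT libraries did, which shows in the spread of most members.

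Of the 5 members tested, FYN rose, LYN fell, and SRC, YES1 and CSK did not pass the test. That is 1 member in each direction against the shares of all genes given above. FYN and LYN were also the members whose genotypes did not overlap, beside 52.3% of all genes tested.

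**Figure D1:**
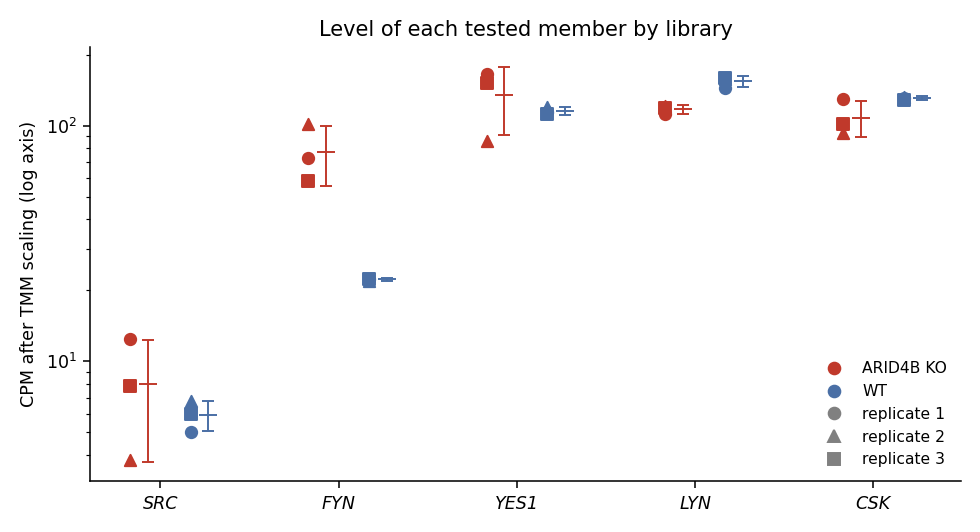
Level of each tested member in CPM (log axis) in the 3 ARID4B knockout libraries (red, left) and the 3 WT libraries (blue, right), with mean ± SD beside the points and a marker shape per replicate. FYN averaged 77.5 CPM in the knockout and 22.3 CPM in WT, LYN averaged 117 CPM in the knockout and 154 CPM in WT, and the libraries of SRC, YES1 and CSK overlap.

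FYN (chromosome 6, 111981535 to 112194655 on hg19) links receptors to cytoskeletal and adaptor proteins in many cell types. It had 72.8, 102 and 58.3 CPM in the knockout, against 22.4, 21.97 and 22.5 CPM in WT. Every knockout library stood above every WT library, with the highest value in replicate 2 and the lowest in replicate 3. FYN averaged 77.5 ± 22.002 CPM in the knockout and 22.3 ± 0.26 CPM in WT (SD, n = 3 each), a log2 fold change of 1.80 (SE 0.20, edgeR adjusted p = 0.00199), or 3.48-fold. From the highest fold change down, FYN ranked 1075 of 13696 genes. The authors' deposited table of 3153 genes listed FYN, with a log2 fold change of 2.02 and an adjusted p of 0.0149. It listed none of the other 8 members. Its smallest absolute log2 fold change was 0.59 and its largest unadjusted p was 0.04997. Absence from it therefore does not show that a member was unchanged in the authors' test. FYN stayed past the threshold in all 15 alternatives, between 1.55 and 1.96. Its 61 tested neighbours within 10 Mb had medians of -0.11, -0.08 and -0.10 (log2 against WT) in knockout replicates 1 to 3, below 0 in each.

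LYN (chromosome 8, 56792386 to 56925006) is the Src kinase of myeloid and B cells and also acts on inhibitory receptors. It had 112, 121 and 118 CPM in the knockout, against 145, 158 and 160 CPM in WT. All knockout libraries lay below all WT libraries, and the knockout spread was small. LYN averaged 117 ± 4.63 CPM in the knockout and 154 ± 8.23 CPM in WT (SD, n = 3 each), a log2 fold change of -0.40 (SE 0.07, edgeR adjusted p = 0.00697). It was the tested member with a lower coefficient of variation in the knockout, 3.96%, than in WT, 5.34%. LYN stayed past the threshold in all 15 alternatives, with adjusted p up to 0.0443. Its 33 tested neighbours were lower too, with medians of -0.18, -0.18 and -0.11 across the knockout libraries. After subtraction of this regional shift the log2 fold change of LYN was -0.23 (adjusted p = 0.0236).

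**Figure D2:**
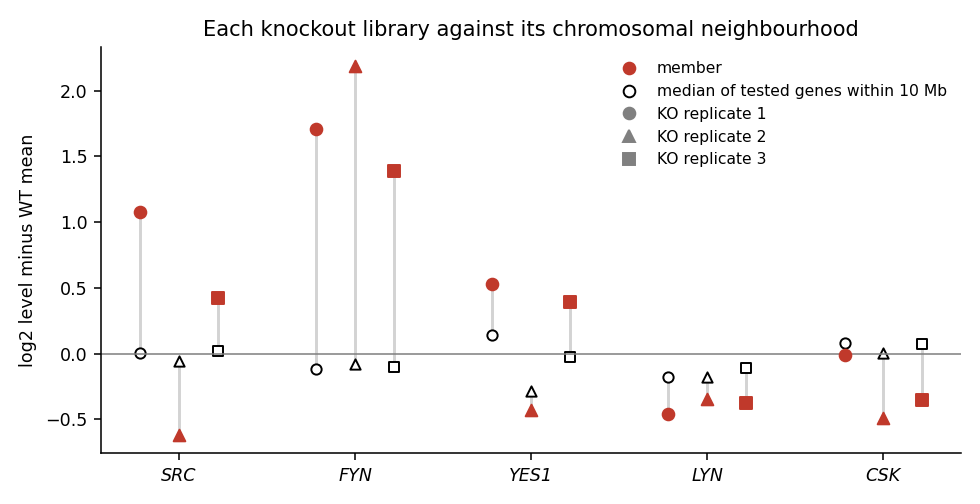
Log2 level of each tested member in each ARID4B knockout library minus its WT mean (red), beside the median shift of all tested genes within 10 Mb (open), with a marker shape per replicate. FYN stands 1.71, 2.19 and 1.39 above WT over a neighbourhood between -0.11 and -0.08, whereas the LYN neighbourhood lies between -0.18 and -0.11, the same side as LYN.

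YES1 (chromosome 18, 721592 to 812542), the broadly expressed kinase closest to SRC and FYN, was uneven in the knockout. It had 166, 85.7 and 151 CPM in the knockout, against 114, 120 and 112 CPM in WT. Knockout replicates 1 and 3 lay above all WT libraries and replicate 2 below them. YES1 averaged 134 ± 42.8 CPM in the knockout and 115 ± 4.09 CPM in WT (SD, n = 3 each; log2 fold change 0.22, SE 0.23, edgeR adjusted p = 0.487). Without knockout replicate 2 the log2 fold change was 0.45 and passed (adjusted p = 0.00766). The 35 tested neighbours had medians of 0.14, -0.29 and -0.02 in knockout replicates 1 to 3, in the same order as YES1 across these libraries. After subtraction of these medians YES1 was 0.25 (adjusted p = 0.214).

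SRC (chromosome 20, 35973088 to 36033821), the founding member, was the scarcest of the tested kinases. It had 12.4, 3.84 and 7.89 CPM in the knockout, against 5.03, 6.80 and 5.97 CPM in WT. The genotypes overlapped, and the knockout libraries spanned 3.23-fold. SRC averaged 8.04 ± 4.28 CPM in the knockout and 5.93 ± 0.885 CPM in WT (SD, n = 3 each; log2 fold change 0.44, SE 0.40, edgeR adjusted p = 0.435). Without knockout replicate 1 the value was -0.02 (adjusted p = 0.971).

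The SRC row shared reads with the row of a complementary DNA, AX747164, at chromosome 20, 36031514 to 36033817, inside the 3′ end of the gene. SRC had 316.83, 86.04 and 188.26 estimated counts in the knockout, against 133.77, 199.15 and 137.98 in WT, and AX747164 took 7.63%, 5.45% and 9.05% of the locus in the knockout, against 25.3%, 1.41% and 18.4% in WT. The division between the rows thus varied between WT libraries, while their sums were whole numbers. The sum of both rows came to 13.4, 4.06 and 8.69 CPM in the knockout, against 6.72, 6.90 and 7.31 CPM in WT. Summed, the locus averaged 8.72 ± 4.67 CPM in the knockout and 6.98 ± 0.304 CPM in WT (SD, n = 3 each), with a log2 fold change of 0.32 (SE 0.39, edgeR adjusted p = 0.561), a calculation chosen after seeing the data.

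CSK (chromosome 15, 75074425 to 75095539), the inhibitory kinase, had 129, 93.1 and 102 CPM in the knockout, against 131, 132 and 128 CPM in WT. Knockout replicate 1 lay within the WT range and the other two below it. CSK averaged 108 ± 18.9 CPM in the knockout and 131 ± 2.37 CPM in WT (SD, n = 3 each; log2 fold change -0.27, SE 0.12, edgeR adjusted p = 0.133). Without knockout replicate 1 it was -0.42 and passed (adjusted p = 0.00507). Its 138 tested neighbours had medians of 0.08, 0.00 and 0.07.

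KIT, the receptor named with Src in the study's title, had 19.1, 2.94 and 12.3 CPM in the knockout, against 1.28, 0.888 and 1.08 CPM in WT. Its knockout libraries stood in the order replicate 1, 3, 2, as those of SRC, YES1 and CSK did, while FYN was highest in replicate 2. The log2 fold change of KIT was 3.40 (SE 0.66, edgeR adjusted p = 0.00959), a call that ended with limma-voom (0.0628) and when WT replicate 2 or 3 was removed (0.053 and 0.0507). Without knockout replicate 1 it was 2.81. The authors' deposited table gave KIT a log2 fold change of 3.25, with an adjusted p of 0.0976 in their test.

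LCK, FGR, BLK and PAG1 were nearly silent in both genotypes. LCK, the kinase of T cell receptor signalling, had 1, 0 and 3 counts in the knockout, against 1, 0 and 0 in WT. FGR, of neutrophils and monocytes, had 2, 0 and 2 counts in the knockout, against 0, 0 and 2 in WT. BLK, of B cells, had 1 count in 1 knockout library, and PAG1 had 3 counts in 1 knockout library, and neither had a count in WT. A count of 0 over the WT group allows up to 0.038 CPM (3 counts, counting error only), so for these 4 members a difference was not detectable at this depth. None passed the filter and none was tested. Markers of T cells, B cells and myeloid cells were low or uneven. The 8 T cell markers summed to 4.10 to 14.9 CPM in the knockout, against 3.93 to 4.07 CPM in WT, with none at 0 in all libraries. The 7 B cell markers summed to 4.01 to 8.71 CPM in the knockout, against 2.90 to 3.98 CPM in WT, with MS4A1 at 0. The 8 myeloid markers summed to 36.5 to 61.8 CPM in the knockout, against 28.7 to 30.5 CPM in WT, with ELANE at 0.

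Per kilobase of transcript, the scale on which genes can be compared with each other, the order of the levels differed between the genotypes. In the knockout the means were 39.1 CPM per kb for CSK, 28.9 for YES1, 21.4 for FYN, 20.2 for LYN and 1.74 for SRC. The knockout ranges of CSK and YES1 overlapped, as did those of YES1, FYN and LYN, while SRC stood apart. In WT the means were 47.2 CPM per kb for CSK, 26.5 for LYN, 24.8 for YES1, 6.14 for FYN and 1.28 for SRC. The WT ranges of LYN and YES1 overlapped, and the others did not meet their neighbours in that order. The longest full-length coding transcript of each gene set its length.

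Summed over the 7 kinases, the family came to 363, 312 and 336 CPM in the knockout, against 286, 306 and 300 CPM in WT. The genotypes did not overlap, but the lowest knockout library and the highest WT library were close. The sum averaged 337 ± 25.7 CPM in the knockout and 298 ± 10.5 CPM in WT (SD, n = 3 each), a log2 ratio of 0.18 (two-sided exact permutation p = 0.1, the smallest that 3 against 3 allow, so that no such test can pass 0.05). Per kilobase the log2 ratio was 0.30, and with library totals alone 0.29.

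The composition of the sum differed between the genotypes. FYN held 20.05%, 32.5% and 17.3% of the summed CPM in the knockout, against 7.82%, 7.17% and 7.48% in WT. LYN held 30.8%, 38.7% and 35.3% in the knockout, against 50.6%, 51.5% and 53.2% in WT. Neither share overlapped between genotypes (exact permutation p = 0.1 for each, the smallest possible). YES1 held 45.7%, 27.5% and 45.0% in the knockout, against 39.8%, 39.1% and 37.3% in WT (exact p = 1), and SRC 3.41%, 1.23% and 2.35% in the knockout, against 1.76%, 2.22% and 1.99% in WT (exact p = 0.7). Shares sum to a whole and are not independent of each other, but they do not depend on library scaling. The ratio of FYN to LYN was 0.651, 0.840 and 0.492 in the knockout, against 0.155, 0.139 and 0.141 in WT. Relative to CSK, the family sum was 2.81, 3.35 and 3.29 in the knockout, against 2.18, 2.31 and 2.35 in WT (difference of mean log2 values 0.46, exact permutation p = 0.1). These are ratios of messenger RNA, and kinase activity and phosphorylation were not measured.

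**Figure D3:**
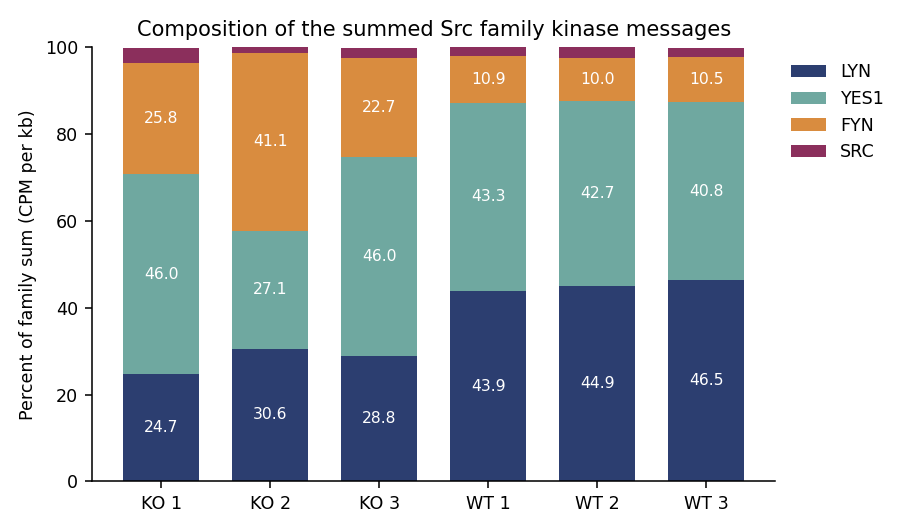
Percent of the summed Src family level (CPM per kb) held by LYN, YES1, FYN and SRC in each library, ARID4B knockout on the left and WT on the right. FYN holds 25.8%, 41.1% and 22.7% in the knockout, against 10.9%, 10.0% and 10.5% in WT, and LYN is smaller in every knockout bar than in any WT bar.

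By a rule on patterns, genes most like FYN over the 6 libraries were RAB32, a small GTPase, GP6, the collagen receptor of platelets, and NCOA2, a nuclear receptor coactivator. Their root mean square differences from FYN were 0.104, 0.109 and 0.148 on the log2 scale, among 7581 genes compared. GP6 had 45.4, 50.8 and 29.4 CPM in the knockout, against 12.7, 11.6 and 11.8 CPM in WT. Megakaryocyte markers stood in the same direction as FYN, summing to 108 to 225 CPM in the knockout, against 4.58 to 5.48 CPM in WT, and 3 of 8 markers reached 1 CPM in all knockout libraries, against 1 of 8 in all WT libraries. Fibroblast markers summed to 41.8 to 239 CPM in the knockout, against 8.83 to 9.54 CPM in WT. In bulk RNA, more cells of a type and more RNA per cell cannot be told apart, and the part of either marker list in the FYN result was not tested. Genes most like LYN, among 5362 compared, were IDE, a protease that degrades insulin, RFC3, a subunit of the replication clamp loader, and UBE2E3, a ubiquitin-conjugating enzyme, with differences of 0.0164, 0.019 and 0.0221.

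Genes that regulate or receive the Src kinases came from 6 lists, chosen with earlier results of these data known. Of 69 tested, 19 rose and 9 fell (40.6%), beside 33.7% of all genes, and their median log2 fold change was 0.16, beside 0.02. Without WT replicate 1, 2 or 3, 17, 15 and 14 of them passed. Calls over all genes fell too in these fits, to 2349 of 14363, 2097 of 14365 and 2178 of 14437 genes tested. The main test had called 4619 of 13696. The related kinases FRK, PTK6 and SRMS did not pass the filter. Among the called list genes, the authors' table gave an adjusted p under 0.05 for CBL, SKAP2, TLN1, TNS1, VCL and ZYX. For AFAP1, CAV1, DOK2, ENAH, LCP2, PTPN12, PXN, SH3KBP1, SHC1 and UNC119 it gave 0.0509 to 0.197.

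Of 9 partners of CSK tested with edgeR, 3 rose and 0 fell, beside 33.7% of all genes called, with a median of 0.37. At an unadjusted p under 0.05, 1 was lower, and after adjustment DESeq2 called 0 lower and limma-voom 1. Limma-voom called 1 of them higher, losing DOK2 (adjusted p = 0.0528) and CAV1 (0.155). DOK2, an adaptor that carries inhibitory signals, had 11.6, 7.63 and 3.44 CPM in the knockout, against 1.99, 2.36 and 2.03 CPM in WT (log2 fold change 1.83, edgeR adjusted p = 0.0189). PTPN12, a phosphatase of cytoskeletal proteins, had 98.9, 81.4 and 79.6 CPM in the knockout, against 58.4, 68.0 and 61.9 CPM in WT (0.47, adjusted p = 0.0178). CAV1, a membrane scaffold, had 0.43, 3.79 and 3.74 CPM in the knockout, against 0.45, 0.239 and 0.303 CPM in WT, so knockout replicate 1 lay in the WT range (2.98, adjusted p = 0.03). The calls of DOK2 and CAV1 ended without any 1 of the WT libraries (adjusted p 0.0691 to 0.0813 and 0.0887 to 0.116), that of PTPN12 without WT replicate 1 or 3 (0.0817 and 0.0806), and that of CAV1 also without knockout replicate 2 or 3 (0.068 and 0.0645). MATK, the CSK relative, was chosen after its values were seen. It had 24.3, 3.48 and 1.89 CPM in the knockout, against 31.4, 28.4 and 28.7 CPM in WT, and did not pass (-1.57, adjusted p = 0.191).

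Beside 33.7% of all genes called, 0 of 7 phosphatases of the tail or activation loop rose and 2 fell with edgeR. Their median was 0.07. At an unadjusted p under 0.05, 1 was higher, and after adjustment DESeq2 and limma-voom each called 1 higher. PTPN2 had 40.2, 37.1 and 41.0 CPM in the knockout, against 54.0, 57.3 and 58.0 CPM in WT (-0.52, edgeR adjusted p = 0.00395). PTPN11, or SHP2, had 214, 187 and 197 CPM in the knockout, against 251, 267 and 256 CPM in WT (-0.37, adjusted p = 0.00951). PTPRC, the receptor phosphatase CD45 that acts on the tail tyrosine, was chosen after its values were seen for its spread. It had 3.48, 161 and 38.1 CPM in the knockout, against 68.9, 74.0 and 74.2 CPM in WT, a 46.2-fold span among knockout libraries (adjusted p = 0.946).

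Ubiquitin ligases and negative adaptors gave 2 rises and 1 fall among 8, beside 33.7% of all genes called, with a median of 0.30. CBL, the ligase that marks active kinases for degradation, had 105, 80.3 and 92.5 CPM in the knockout, against 55.9, 63.8 and 60.3 CPM in WT (0.63, edgeR adjusted p = 0.0073). SH3KBP1, a scaffold that binds CBL, had 21.4, 5.57 and 4.32 CPM in the knockout, against 1.16, 1.54 and 1.47 CPM in WT (2.90, adjusted p = 0.0156). CD2AP, its relative, had 92.9, 100.4 and 107 CPM in the knockout, against 120.2, 128 and 135 CPM in WT (-0.35, adjusted p = 0.0169). SH3KBP1 missed the threshold without any 1 of the WT libraries (adjusted p 0.0646 to 0.0736) and with limma-voom (0.0597), and CD2AP without WT replicate 2 or 3 (0.0697 and 0.0778) and under scaling by library totals (0.0547). The log2 fold change of SH3KBP1 was 1.83 without knockout replicate 1 and 3.58 after subtraction of the regional shift.

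Focal adhesion and cytoskeletal substrates moved one way where they passed. Of all genes tested, 18.3% rose and 15.4% fell. Of 17 substrates tested with edgeR, 9 rose and 0 fell, with a median of 0.51. At an unadjusted p under 0.05, 0 were lower, and neither DESeq2 nor limma-voom called any lower. TNS1, which ties integrins to actin, had 17.3, 26.1 and 19.8 CPM in the knockout, against 6.31, 6.15 and 5.28 CPM in WT (1.83, edgeR adjusted p = 0.00158). ENAH, an actin regulator, had 85.0, 10.3 and 0.714 CPM in the knockout, against 0.45, 0.308 and 0.606 CPM in WT (6.15, adjusted p = 0.03), and knockout replicate 1 set most of its mean. AFAP1, an actin filament adaptor of SRC, had 30.01, 8.43 and 2.06 CPM in the knockout, against 1.35, 0.957 and 0.346 CPM in WT (3.91, adjusted p = 0.0253). ZYX, TLN1 and VCL, adhesion plaque proteins chosen after their values were seen, rose in every knockout library above every WT library. In either direction, the genotypes did not overlap for 52.3% of all genes tested and 59.4% of the 69 list genes. ZYX had 286, 222 and 226 CPM in the knockout, against 107, 108 and 102 CPM in WT (1.21, adjusted p = 0.00122). Without WT replicate 1, 2 or 3, 1243 of 14363, 1156 of 14365 and 1207 of 14437 genes tested were called higher. The main test had called 2512 of 13696 higher. In each of these 3 fits, 4 members of the list passed. ENAH and AFAP1 were not among them (adjusted p 0.101 to 0.112 and 0.0772 to 0.0937). With limma-voom neither passed (0.337 and 0.143), and ENAH, at 4.32, also failed with a variance weight per genotype (4.33, adjusted p = 0.0658). Without knockout replicate 1 the log2 fold change was 3.59 for ENAH and 2.54 for AFAP1.

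Haematopoietic adaptors gave 3 rises and 2 falls among 15, beside 33.7% of all genes called, with a median of 0.01. SKAP2, an adaptor bound by FYN, had 82.3, 77.7 and 49.1 CPM in the knockout, against 20.1, 20.4 and 22.2 CPM in WT (1.74, edgeR adjusted p = 0.0021). LCP2, or SLP-76, had 46.3, 31.8 and 11.3 CPM in the knockout, against 8.37, 8.75 and 8.09 CPM in WT (1.83, adjusted p = 0.0234). SHC1, an adaptor of growth factor receptors, had 97.7, 104 and 102 CPM in the knockout, against 79.2, 77.8 and 72.0 CPM in WT (0.41, adjusted p = 0.00617). LCP2 missed the threshold without any 1 of the WT libraries (adjusted p 0.0832 to 0.0894), without knockout replicate 2 (0.0503) and with limma-voom (0.0814). Among RNA-binding substrates, KHDRBS1, or SAM68, had a log2 fold change of -0.45 (adjusted p = 0.00298), and HNRNPK one of -0.42 (adjusted p = 0.00248). With the neighbourhood offset KHDRBS1 and SHC1 did not pass (0.0626 and 0.0522).

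Genes that lipidate, carry or fold the kinases gave 2 rises and 4 falls among 13. Their median was -0.05, and 33.7% of all genes were called. HSP90AB1, a chaperone of SRC, averaged 4075 ± 41.7 CPM in the knockout and 5865 ± 93.3 CPM in WT (SD, n = 3 each; -0.53, edgeR adjusted p = 0.00126), and HSP90AA1 fell by 0.42 (adjusted p = 0.0077). UNC119, which binds the lipid of Src kinases, had 20.4, 15.8 and 16.8 CPM in the knockout, against 11.9, 10.9 and 10.6 CPM in WT (0.66, adjusted p = 0.0122). FLOT1, a membrane raft protein, rose by 0.31 (adjusted p = 0.0166). LYPLA1, which removes palmitate, fell by 0.38 (adjusted p = 0.0231). UNC119 and FLOT1 missed the threshold without WT replicate 2 or 3 (adjusted p 0.0631 to 0.0891). LYPLA1 missed it without any 1 of the WT libraries (0.0611 to 0.0816), after subtraction of the regional shift (0.097), and under scaling by library totals (0.0894) or upper quartiles (0.0582).

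**Figure D4:**
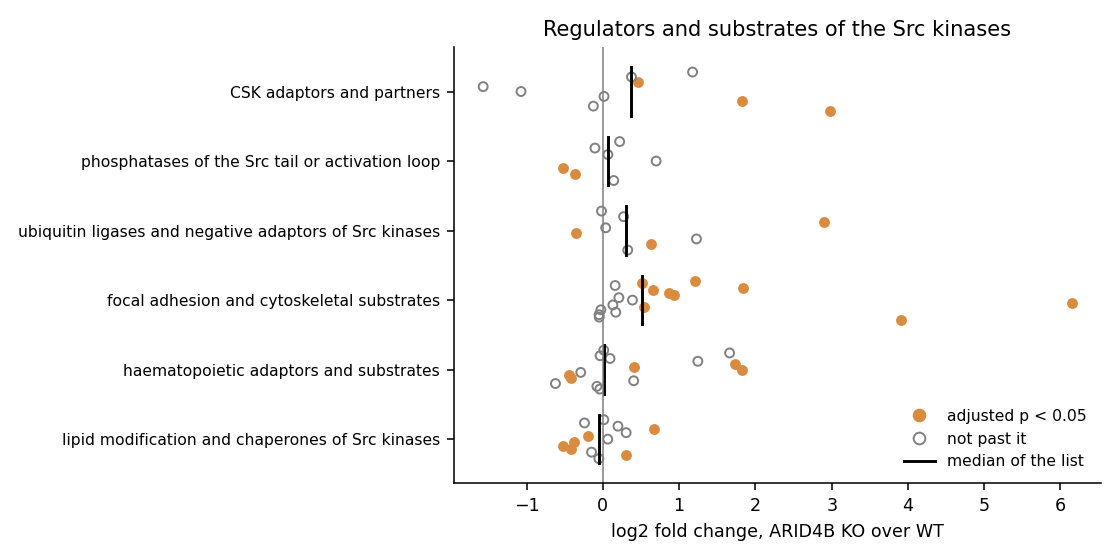
Log2 fold change (ARID4B knockout over WT) of each tested gene in 6 lists around the Src kinases, members left out, filled where the adjusted p is under 0.05, with the median of each list as a bar. Focal adhesion substrates have 9 filled points above 0 and none below, with a median of 0.51. Of all genes tested, 18.3% rose and 15.4% fell.

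The genotype effect on the members under each setting is shown last. FYN and LYN kept their call throughout, YES1 passed without knockout replicate 2, CSK passed without knockout replicate 1, and SRC passed in none of 16.

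**Figure D5:**
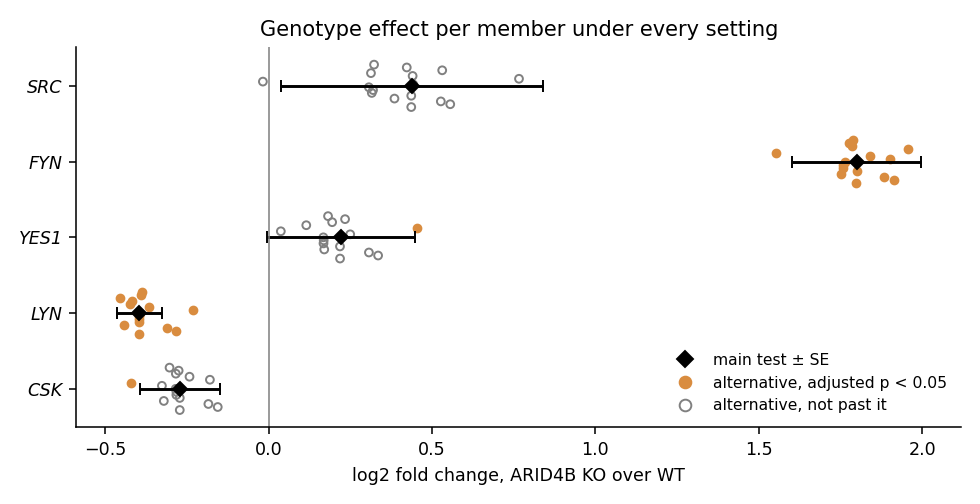
Log2 fold change (ARID4B knockout over WT) of each tested member under the main test (diamond with SE) and under every alternative (circles, filled where the adjusted p is under 0.05). FYN lies between 1.55 and 1.96, LYN between -0.46 and -0.23, and SRC between -0.02 and 0.77.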

How the data were processed

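Messenger RNA libraries of K562 cells were made with a kit that keeps strand information, per the labels' protocols. STAR 2.4, RSEM 1.2.14 and the builds hg19 and GRCh37 appear in the submitters' processing notes with no role. The deposited table holds estimated counts per gene, not normalized. A second table deposited by the authors gives log2 fold changes and p-values. For that table's test and for strand use in counting, the sources used here say nothing.

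Estimated counts were rounded and tested in R 4.3.3 across all genes, using the quasi-likelihood F test of edgeR 4.0.16 for genotype, TMM scaling and the default filter (minimum count 10), with Benjamini-Hochberg adjustment over 13696 genes. Alternatives used DESeq2 1.42.0 and limma 3.58.1, other scalings, no filter, a replicate block, a neighbourhood offset (median of tested genes within 10 Mb, at least 5 genes) and each library left out. Shares and sums were compared by exact permutation over libraries. The calculation was tested on simulated data in which both genotypes had the same spread. It was not tested under the unequal spread of these libraries. No 2 libraries were duplicates. Table starts count from 0, so 1 was added. A spreadsheet had turned 27 symbols into dates, which were restored.

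The members and gene lists were chosen with earlier results of these data known. Named genes were the members, ARID4B, KIT, up to 3 called genes each way per list whose higher group averaged 1 CPM or above, and the 3 genes most like each member past the threshold, within 4-fold of its mean. The main test did not pair libraries by replicate number.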

Additional observations from a re-analysis of the deposited data

How the results depend on the processing

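FYN and LYN kept direction and call under all 15 alternatives. YES1 without ARID4B KO replicate 2 was 0.45 (adjusted p = 0.00766) and CSK without ARID4B KO replicate 1 was -0.42 (adjusted p = 0.00507), both then past the threshold. SRC changed sign without ARID4B KO replicate 1, at -0.0175. With single libraries left out, YES1 ranged from 0.0374 to 0.454, CSK from -0.421 to -0.18 and SRC from -0.0175 to 0.766, genes past the threshold from 2097 to 5456, and called list genes from 14 to 32. The fewest came without a WT library. The log2 ratio of the Src family sum was 0.18, but 0.29 with library totals alone and 0.30 per kilobase. The YES1 share difference was 0.628 percentage points and -2.57 per kilobase, so its sign depended on the scale. With the neighbourhood offset YES1 was 0.25 and CSK -0.33 (adjusted p = 0.214 and 0.054).

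Scaling moved the balance of all calls. With library totals alone 3120 genes were higher and 1283 lower (70.9% higher, against 54.4%), a shift of 0.11 in the median, and with upper quartile factors 67.0% were higher. Without a filter the median was shifted by 0.20. The deviations of same-numbered libraries had correlations of 0.012, 0.018 and 0.010, against -0.020 to 0.007 for the other pairs. All are near 0, and they cannot settle whether the numbers mark a pairing. A fit with the replicate block gave FYN 1.76, LYN -0.39 and 3449 genes past the threshold, and CAV1 and ENAH did not pass (adjusted p = 0.0908 and 0.0527). Of 21 named list genes, 11 lost their call without at least 1 WT library, and 13 in some alternative. None reversed. The cause of these dependencies was not tested. Depth limits LCK, FGR, BLK and PAG1.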
